A study of Rattus norvegicus with 16 samples.

Results

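The genes described here mark the endothelium of the kidney or receive its vascular growth signals: Kdr, Flt1, Pecam1, Cdh5, Tek, Nos3, Emcn, Ehd3, Vwf and Plvap. They were chosen by gene name from the deposited table of 35849 genes. Of the 10 names, 9 had a row in that table, and Pecam1 was not analysed here. The renal tissue of 16 male Sprague Dawley rats, 6 to 8 weeks of age at the start, was measured by RNA sequencing of oligo(dT)-selected RNA, with 4 rats in each group. The normal group received citrate buffer and a normal diet. The DN (diabetic nephropathy) group received streptozotocin at 45 mg/kg, which destroys insulin-producing cells, together with a diet high in glucose and fat, and rats with a blood glucose over 16.7 mmol/L were kept. The SIN (20 mg/kg) group and the SIN (40 mg/kg) group had the same injection, diet and selection and were given sinomenine, an alkaloid drug, by gavage each day for 8 weeks, while the DN rats received vehicle. Streptozotocin, the diet and the glucose selection therefore cannot be told apart in any comparison with the normal group. Each library came from 1 rat and held 19616312 to 25217030 estimated counts.

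Endothelial cells line every blood vessel of the kidney. Vascular endothelial growth factor A (VEGF-A), made in the glomerulus mainly by podocytes, acts on the endothelium through the receptor tyrosine kinase KDR (VEGFR2), which carries most of its mitogenic and permeability signal, while FLT1 (VEGFR1) binds it tightly and acts largely as a trap. TEK (TIE2) is the receptor of the angiopoietins and keeps vessels quiescent when angiopoietin-1 is bound. In diabetic nephropathy this signalling and the release of nitric oxide by endothelial nitric oxide synthase (NOS3) are known to be disturbed. Kidney endothelium is not uniform: EHD3 marks the fenestrated glomerular capillaries, PLVAP forms the diaphragms of fenestrated peritubular capillaries and medullary vessels, and von Willebrand factor (VWF) is stored mainly in larger vessels.

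RefSeq (GRCr8) gave a promoter for 6 of the 10 genes. The 250 bases before the gene start are printed for 4 of them, the VEGF receptors Kdr and Flt1, whose levels did not follow each other, and Plvap and Nos3, whose levels moved together. Each is written 5′ to 3′ on the strand of the gene. Capitals mark the ETS letters CGGAAG or AGGAAG on either strand (CTTCCT is AGGAAG on the other strand). These letters hold the core bound by ETS factors, which are active in endothelium, together with flanking bases. The core with other flanks was not searched. Kdr lies at chr14:32571813-32572062 (plus strand), Flt1 at chr12:12333180-12333429 (plus strand), Plvap at chr16:18231280-18231529 (minus strand) and Nos3 at chr4:11706582-11706831 (minus strand).
Kdr: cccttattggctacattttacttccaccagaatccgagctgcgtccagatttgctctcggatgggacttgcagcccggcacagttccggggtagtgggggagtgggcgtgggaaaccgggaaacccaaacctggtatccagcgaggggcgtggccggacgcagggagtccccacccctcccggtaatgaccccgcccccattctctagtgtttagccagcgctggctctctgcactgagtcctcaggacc
Flt1: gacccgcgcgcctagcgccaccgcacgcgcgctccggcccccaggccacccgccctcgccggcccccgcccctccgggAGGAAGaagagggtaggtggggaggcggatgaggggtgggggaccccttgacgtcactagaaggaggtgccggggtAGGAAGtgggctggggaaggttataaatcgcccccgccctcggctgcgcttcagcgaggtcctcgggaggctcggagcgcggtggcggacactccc
Plvap: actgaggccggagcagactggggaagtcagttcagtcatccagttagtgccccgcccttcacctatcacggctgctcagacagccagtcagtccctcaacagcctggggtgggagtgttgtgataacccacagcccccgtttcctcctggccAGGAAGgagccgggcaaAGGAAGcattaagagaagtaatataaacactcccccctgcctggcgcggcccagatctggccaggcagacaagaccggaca
Nos3: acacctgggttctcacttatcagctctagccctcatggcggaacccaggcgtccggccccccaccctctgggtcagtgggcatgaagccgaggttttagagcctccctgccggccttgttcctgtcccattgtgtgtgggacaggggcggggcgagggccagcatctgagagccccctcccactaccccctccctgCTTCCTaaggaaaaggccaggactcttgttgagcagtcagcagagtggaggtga
Flt1 and Plvap each held 2 matches to the ETS letters, Nos3 held 1 and Kdr held 0. Emcn held 2 and Ehd3 held 0. Of all 33469 rat promoters of the same length, 39.4% held at least 1 match. The TATA letters TATAAA, present in 12.9% of all promoters, stood in those of Flt1 and Plvap, and the SOX letters ACAAAG or ACAATG, present in 25.3%, in that of Nos3. The GATA letters AGATAA, present in 10.3% of promoters, stood in none of the 6. A match is a description of letters and not a binding site.

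All 9 genes were expressed in every rat. Between genes, levels were compared in the normal group in TPM, which divides counts by gene length and scales each rat to the same total. Plvap was highest at 163 ± 54.0 TPM (SD, n = 4), followed by Emcn, the endothelial sialomucin endomucin, at 70.3 ± 18.8 TPM. Ehd3 (24.3 ± 6.63), Kdr (22.9 ± 1.25), Tek (21.6 ± 2.95), Flt1 (18.1 ± 2.24) and Cdh5 (18.1 ± 1.98) formed a middle range of TPM levels in which the ranges of neighbours in that order overlapped, although Tek was above Flt1 in each of the 4 normal rats. Vwf stood at 6.71 ± 1.38 TPM and Nos3 lowest at 2.84 ± 0.371 TPM. All levels from here on are CPM, the count of a gene as a share of its library scaled with TMM factors, and are compared only between rats.

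**Figure D1:**
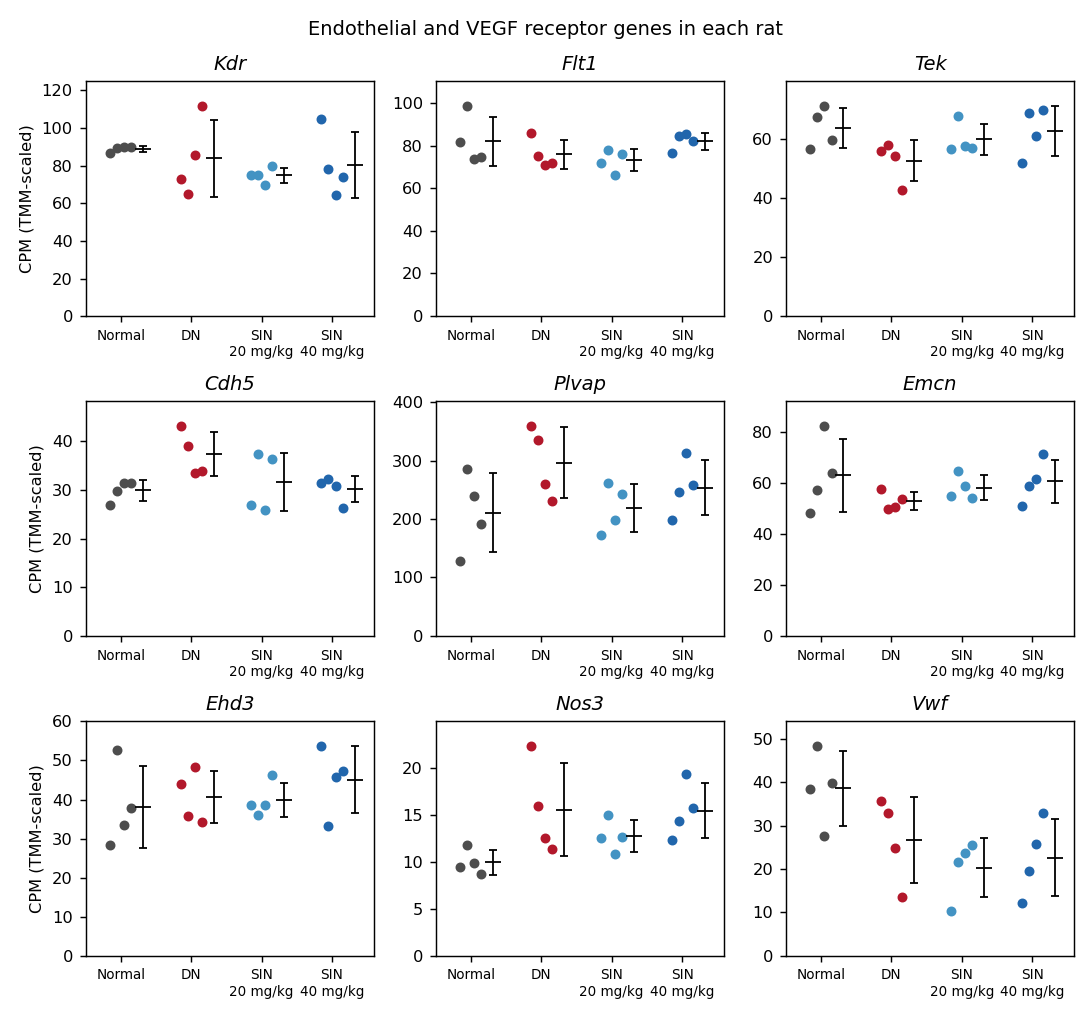
CPM (y axis, from 0) of 9 endothelial genes in each of 16 rats (points, in the order of replicate number) by group (x axis), with the group mean and SD beside them (n = 4). All DN rats lie above all normal rats for Cdh5, all SIN (20 mg/kg) rats lie below all normal rats for Kdr and Vwf, and all SIN (40 mg/kg) rats lie above all normal rats for Nos3.

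The first question was whether these genes differed between DN and normal kidney. Of the 9 genes, 0 passed an adjusted p under 0.05 in edgeR's quasi-likelihood test, against 8.74% of the 15775 genes tested that were called higher and 10.8% that were called lower. At an unadjusted p under 0.05 there were 3, with Cdh5 and Nos3 higher and Tek lower, where 17.5% of all genes were higher and 19.4% lower. DESeq2 called 2 of the 9, Cdh5 and Nos3, where it called 4198 of all 15775 genes tested. The median log2 fold change of the 9 genes was -0.08, beside 0.0016 over all genes tested. Members therefore lay on both sides of 0, as follows by role.

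Kdr (ENSRNOG00000046829) was 86.79, 89.41, 89.77 and 89.70 CPM in the 4 normal rats. In the DN rats it was 72.98, 64.98, 85.89 and 111.6 CPM. Of the DN rats 3 lay below the whole normal range and 1 lay above it, so that the SD was 20.4 CPM in the DN group and 1.42 CPM in the normal group. The log2 fold change of DN over normal was -0.08 (SE 0.153, 95% interval of the fold 0.747 to 1.20, edgeR adjusted p = 0.741).

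Flt1 (ENSRNOG00000000940), the other main VEGF-A receptor, was 81.72, 98.46, 73.48 and 74.62 CPM in the normal rats and 85.86, 74.89, 70.95 and 71.86 CPM in the DN rats. The groups overlapped, and the log2 fold change was -0.11 (SE 0.113, 95% interval of the fold 0.779 to 1.10, adjusted p = 0.512).

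Tek (ENSRNOG00000008587) was 56.39, 67.43, 70.98 and 59.41 CPM in the normal rats. In the DN rats it was 55.98, 57.90, 54.00 and 42.62 CPM. Of the DN rats 3 lay below every normal rat and 1, at 57.90 CPM, lay within the normal range. The log2 fold change was -0.27 (SE 0.117, unadjusted p = 0.0454, adjusted p = 0.127 by edgeR).

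Cdh5 (ENSRNOG00000013324) encodes VE-cadherin, the adhesion molecule of endothelial junctions. It was 26.87, 29.87, 31.38 and 31.49 CPM in the normal rats and 43.15, 39.14, 33.55 and 34.00 CPM in the DN rats. All 4 DN rats were above all 4 normal rats, as for 11.2% of all genes tested. The log2 fold change was 0.33 (SE 0.106, fold 1.26), and the edgeR adjusted p of 0.0559 missed the threshold. DESeq2 gave an adjusted p of 0.0269.

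Plvap (ENSRNOG00000017676) was 127.4, 284.9, 240.1 and 192.0 CPM in the normal rats and 359.2, 335.3, 260.4 and 231.4 CPM in the DN rats. The 2 highest values of the 8 belonged to DN rats, but the groups overlapped, and the log2 fold change of 0.49 (SE 0.234) had an adjusted p of 0.154 by edgeR. Emcn (ENSRNOG00000022910) was 48.33, 57.22, 82.22 and 63.86 CPM in the normal rats and ran from 49.66 to 57.49 CPM in the DN rats. Its DN values all lay inside the normal range (log2 fold change -0.25, SE 0.149, adjusted p = 0.254). Ehd3 (ENSRNOG00000007744), the glomerular capillary gene, ran from 28.26 to 52.67 CPM in the normal rats and from 34.29 to 48.27 CPM in the DN rats, with a log2 fold change of 0.10 (SE 0.189, adjusted p = 0.735).

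Nos3 (ENSRNOG00000009348), which makes the vasodilator nitric oxide in endothelium, was 9.405, 11.76, 9.832 and 8.672 CPM in the normal rats. It was 22.31, 15.93, 12.48 and 11.33 CPM in the DN rats. Of the DN rats 3 lay above every normal rat. The log2 fold change was 0.65 (SE 0.213, fold 1.57, 95% interval 1.13 to 2.18), and the adjusted p was 0.0581 by edgeR and 0.0211 by DESeq2. Without DN rat 4, which had the lowest Nos3 of its group, the edgeR adjusted p was 0.0375.

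Vwf (ENSRNOG00000019689), whose protein tethers platelets to damaged vessel walls, was 38.46, 48.36, 27.52 and 39.85 CPM in the normal rats and 35.63, 32.87, 24.78 and 13.57 CPM in the DN rats. Of the DN rats 2 lay below every normal rat. The log2 fold change of -0.53 (SE 0.273) had an edgeR adjusted p of 0.190. Megakaryocytes and platelets also carry Vwf RNA. Of 6 of their markers Ppbp was 0 in all 16 rats and Gp1bb in 12 of 16, and Pf4 did not exceed 0.398 CPM. Itga2b, however, stood at 17.7 to 29.2 CPM, about the level of Vwf in the diabetic groups, and made up almost all of the sum, which ran from 19.5 to 26.3 CPM in the normal, 23.7 to 30.0 in the DN and 19.6 to 31.0 CPM in the SIN rats of both doses. The part of these cells in the Vwf levels was not tested.

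Each gene was also expressed relative to Cdh5, another endothelial gene, in the same rat. Over the 16 rats Pearson's r of Cdh5 with the other members ran from -0.17 (Tek) to 0.662 (Plvap). Cdh5 is therefore not shown to measure the endothelial RNA of a rat. In bulk tissue, fewer cells of a type and less RNA per cell cannot be told apart. In the DN rats the log2 ratio to Cdh5 was lower than in the normal rats, with differences of -0.43 for Flt1, -0.60 for Tek, -0.55 for Emcn and -0.91 for Vwf. Each of these 4 ratios gave p = 0.0286 when tested by exact permutation of the rats (two-sided), which is the smallest p that 4 rats against 4 can give, and an adjusted p of 0.0571 over the 8 ratios. The ratios of Kdr (difference -0.43, exact permutation p = 0.171), Nos3 (0.28, p = 0.171), Plvap (0.21, p = 0.429) and Ehd3 (-0.20, p = 0.400) overlapped between groups. Cdh5 itself was higher in every DN rat, and the ratios share it.

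**Figure D2:**
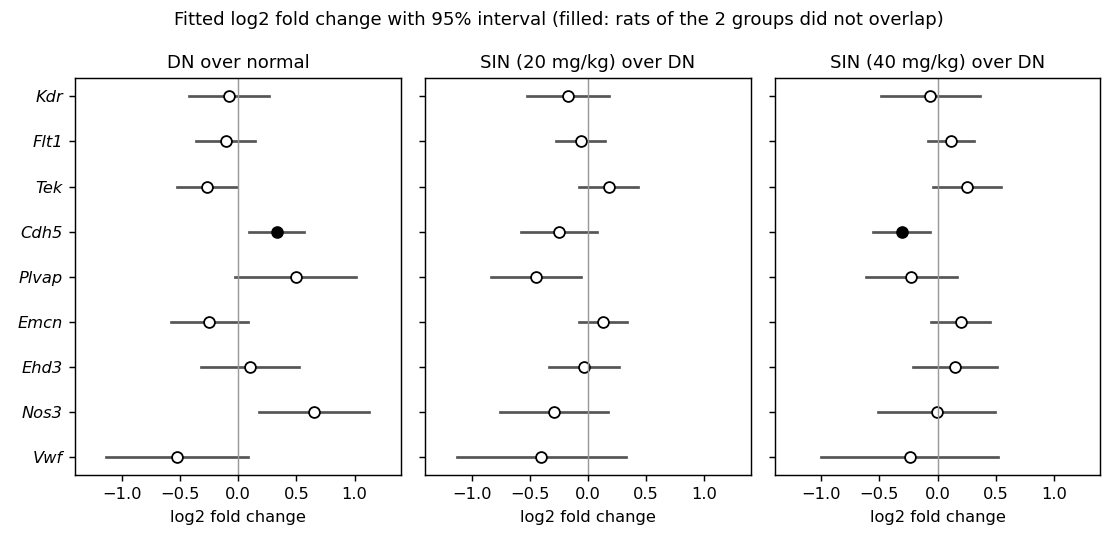
Fitted log2 fold change (x axis) of 9 endothelial genes (y axis) with its 95% interval in 3 comparisons, 4 rats against 4 in each; filled points mark genes whose rats did not overlap between the groups. Cdh5 is the filled gene in DN over normal (0.33) and in SIN (40 mg/kg) over DN (-0.31).

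The SIN comparisons asked whether the drug shifted these genes in diabetic kidney. Both share the 4 DN rats with each other and with the comparison above. In SIN (20 mg/kg) over DN, 0 of the 9 genes passed in edgeR and 0 in DESeq2; edgeR called 0% of the 15724 genes tested higher and 0% lower. At an unadjusted p under 0.05 only Plvap was lower, where 9.20% of all genes were higher and 6.24% lower. Plvap was 172.2, 261.8, 197.7 and 243.1 CPM in the SIN (20 mg/kg) rats, of which 2 lay below every DN rat (log2 fold change -0.44, SE 0.173, unadjusted p = 0.0279, adjusted p = 0.294 by edgeR). Without DN rat 1, DN rat 2, SIN (20 mg/kg) rat 1 or SIN (20 mg/kg) rat 3, 0 genes passed even the unadjusted threshold.

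In SIN (40 mg/kg) over DN, again 0 of the 9 genes passed in edgeR and 0 in DESeq2, with 0% of the 15530 genes tested called by edgeR in either direction. Cdh5 alone was below an unadjusted p of 0.05, where 9.90% of all genes were higher and 7.21% lower. It was 31.52, 32.26, 30.75 and 26.33 CPM in the SIN (40 mg/kg) rats, all below the 4 DN rats, as were 3.99% of all genes tested (log2 fold change -0.31, SE 0.111, unadjusted p = 0.0196, adjusted p = 0.230 by edgeR). The 4 values span the range of the normal rats. At 20 mg/kg Cdh5 was 26.96, 37.31, 25.93 and 36.31 CPM, of which 2 were below every DN rat and 2 within the DN range (log2 fold change -0.25, SE 0.147, adjusted p = 0.415).

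Relative to Cdh5, Flt1 (difference of log2 ratios 0.42), Tek (0.56) and Emcn (0.50) were higher in SIN (40 mg/kg) than in DN rats. Each had an exact permutation p of 0.0286 and an adjusted p of 0.0762 over 8 ratios. Cdh5 itself was lower in every SIN (40 mg/kg) rat than in any DN rat, and the ratios share it. By level against DN, Flt1 and Emcn had edgeR adjusted p of 0.534 and 0.389 at 40 mg/kg. At 20 mg/kg the same ratios differed by 0.20 for Flt1 (exact permutation p = 0.171), 0.44 for Tek (p = 0.0571) and 0.39 for Emcn (p = 0.0857). As levels, Tek was 56.68, 67.77, 57.52 and 56.95 CPM at 20 mg/kg and 51.64, 68.55, 60.75 and 69.69 CPM at 40 mg/kg, with log2 fold changes over DN of 0.18 (SE 0.114) and 0.25 (SE 0.130) whose adjusted p were 0.445 and 0.348 by edgeR. Emcn lay between 53.90 and 64.59 CPM at 20 mg/kg and between 50.85 and 71.14 CPM at 40 mg/kg. Flt1 lay between 66.23 and 77.71 CPM at 20 mg/kg and between 76.35 and 85.24 CPM at 40 mg/kg.

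Kdr was 74.86, 74.85, 69.93 and 79.67 CPM in the SIN (20 mg/kg) rats and 105.0, 78.39, 64.25 and 73.71 CPM in the SIN (40 mg/kg) rats. The 40 mg/kg group, like the DN group, held 1 rat far above the others. The log2 fold changes of Kdr over DN were -0.17 (95% interval of the fold 0.697 to 1.13) and -0.06 (0.713 to 1.29). Nos3 was 12.47, 14.91, 10.79 and 12.65 CPM at 20 mg/kg and 12.35, 14.35, 19.27 and 15.68 CPM at 40 mg/kg. Against DN its log2 fold changes were -0.29 (95% interval of the fold 0.592 to 1.13) and -0.01 (0.703 to 1.41). Vwf was 10.32, 21.64, 23.65 and 25.58 CPM at 20 mg/kg and 12.20, 19.41, 25.80 and 32.96 CPM at 40 mg/kg, both overlapping the DN rats. The 40 mg/kg rats had Plvap at 197.8 to 313.4 CPM, and Ehd3 lay between 36.15 and 46.23 CPM at 20 mg/kg and between 33.34 and 53.75 CPM at 40 mg/kg.

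Between the doses, 0 of the 9 genes passed in edgeR or DESeq2 and 0 had an unadjusted p under 0.05. Over the 15657 genes tested, edgeR called 0% higher and 0.00639% (1 gene) lower at 40 mg/kg, and 2.41% were higher and 2.57% lower at the unadjusted threshold. The fitted values of 8 of the 9 genes were above 0 with a median log2 fold change of 0.15, beside -0.01 over all genes. The widest interval was that of Vwf, whose fold of 40 over 20 mg/kg lay between 0.674 and 1.83, and the narrowest that of Flt1, between 0.980 and 1.28.

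Against the normal group, Nos3 rose in SIN (40 mg/kg) rats. This was 1 of the 9 genes, where edgeR called 2.28% of the 15735 genes tested higher and 3.69% lower. All 4 rats at 40 mg/kg were above all normal rats, as for 7.17% of all genes (log2 fold change 0.63, SE 0.161, fold 1.55, 95% interval 1.21 to 1.99, adjusted p = 0.0471). The call was lost in 6 of the 8 fits that left out 1 rat, namely without normal rat 1, 3 or 4 or SIN (40 mg/kg) rat 2, 3 or 4, with an adjusted p of up to 0.143 and log2 fold changes that stayed above 0. Vwf was the other gene under the unadjusted threshold there (log2 fold change -0.77, SE 0.269, adjusted p = 0.122). At that threshold 11.4% of all genes were higher and 11.5% lower. DESeq2 called both Nos3 and Vwf, where it called 1761 of all 15735 genes tested.

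In SIN (20 mg/kg) over normal, 0 of the 9 genes passed in edgeR, where 2.77% of the 15877 genes tested were called higher and 3.58% lower. Kdr (log2 fold change -0.25, SE 0.0746, adjusted p = 0.0813) and Vwf (-0.93, SE 0.262, adjusted p = 0.0679) were lower in all 4 rats than in any normal rat, as were 7.15% of all genes. DESeq2 called both Kdr and Vwf, where it called 1726 of all 15877 genes tested. Nos3 was the third gene under an unadjusted p of 0.05 (log2 fold change 0.36, adjusted p = 0.201), where 10.2% of all genes were higher and 10.6% lower. Without SIN (20 mg/kg) rat 1, which had the lowest Vwf at 10.32 CPM, Vwf passed in edgeR with an adjusted p of 0.0414. All 3 diabetic groups thus had Vwf group means under that of the normal group, at 26.7 ± 9.90 in DN, 20.3 ± 6.84 at 20 mg/kg and 22.6 ± 8.87 at 40 mg/kg against 38.5 ± 8.55 CPM (SD, n = 4), and these 3 comparisons share the 4 normal rats.

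The ligands of the pathway did not pass the test in DN kidney. Of 5 VEGF ligand genes edgeR called 0, with 1 (Vegfb) at an unadjusted p under 0.05, and DESeq2 called 1. Over all genes tested, 17.5% were higher and 19.4% lower at the unadjusted threshold in edgeR, and DESeq2 called 4198 of 15775. Vegfa was 118, 138, 122 and 110 CPM in the normal rats and 131, 113, 124 and 114 CPM in the DN rats, so the groups overlapped fully (log2 fold change -0.01, SE 0.0969, adjusted p = 0.930). Against DN, Vegfa had log2 fold changes of 0.04 at 20 mg/kg and 0.00 at 40 mg/kg with SE of 0.102 and 0.107. Vegfb, which binds Flt1 and not Kdr, was 57.6 ± 4.89 CPM in DN and 46.0 ± 6.18 CPM in normal rats (log2 fold change 0.33, adjusted p = 0.0665). Vegfc, a ligand of the lymphatic receptor, was higher in all DN rats than in any normal rat, as were 11.2% of all genes tested. It was 5.86 ± 0.237 against 4.82 ± 0.750 CPM, with an edgeR adjusted p of 0.241. Pgf, the placental growth factor, lay at 1.76 ± 0.675 and 1.75 ± 0.734 CPM.

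Of 3 other receptor genes, 1 rose and 1 fell, where edgeR called 8.74% of all genes tested higher and 10.8% lower. Nrp1, the co-receptor neuropilin-1 that presents VEGF-A to KDR, fell: it was 98.9, 95.8, 112 and 104 CPM in the normal rats and 78.4, 70.9, 69.7 and 67.8 CPM in the DN rats, with no overlap (log2 fold change -0.51, SE 0.0856, edgeR adjusted p = 0.00738). It stayed below every normal rat at 20 mg/kg (72.8, 55.5, 62.0 and 71.8 CPM) and at 40 mg/kg (61.7, 61.7, 58.5 and 71.0 CPM). Flt4 (VEGFR3), the receptor of lymphatic and some fenestrated endothelium, rose from 9.13, 9.54, 10.4 and 9.78 CPM to 18.8, 14.6, 13.6 and 13.2 CPM (log2 fold change 0.64, SE 0.140, adjusted p = 0.0178). Its call was lost without normal rat 4 and with the replicate number as a block (adjusted p of up to 0.0566). The summed level of 4 lymphatic markers, of which Flt4 is 1, ran from 38.4 to 51.6 CPM in normal and from 43.7 to 54.9 CPM in DN rats. Nrp2 (26.5 ± 9.38 against 20.5 ± 2.65 CPM, adjusted p = 0.241) did not pass.

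Among 7 angiopoietin and TIE genes 1 was called, and it was lower, where edgeR called 8.74% of all genes tested higher and 10.8% lower. Angpt1, the activating ligand of TEK, fell: it was 12.5, 10.1, 13.8 and 15.9 CPM in the normal rats and 4.03, 4.91, 5.95 and 3.57 CPM in the DN rats (log2 fold change -1.50, SE 0.204, fold 0.354, edgeR adjusted p = 0.00422). With sinomenine it was 13.5, 3.42, 6.68 and 4.04 CPM at 20 mg/kg, where 1 rat lay in the normal range and 3 did not, and 7.60, 5.16, 4.90 and 7.65 CPM at 40 mg/kg, where all rats lay below the normal range. Neither dose differed from DN beyond the spread (log2 fold changes 0.58 and 0.45, adjusted p = 0.484 and 0.344). Angpt2, which opposes it in most settings, ranged from 3.63 to 20.1 CPM in normal and from 8.95 to 22.5 CPM in DN rats (adjusted p = 0.676). Tie1, the partner receptor of TEK, was 62.6 to 64.5 CPM in the normal rats and 72.7, 76.0, 75.8 and 52.8 CPM in the DN rats (log2 fold change 0.14, adjusted p = 0.422). Ptprb, the phosphatase VE-PTP that acts on TEK and Cdh5 protein, was 69.7 ± 9.61 against 79.1 ± 12.6 CPM (adjusted p = 0.370), and Svep1, an extracellular partner of TIE1, 38.2 ± 5.60 against 29.5 ± 4.94 CPM (adjusted p = 0.0890). Angptl1 and Angpt4 stayed under 1.2 CPM in every rat.

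**Figure D3:**
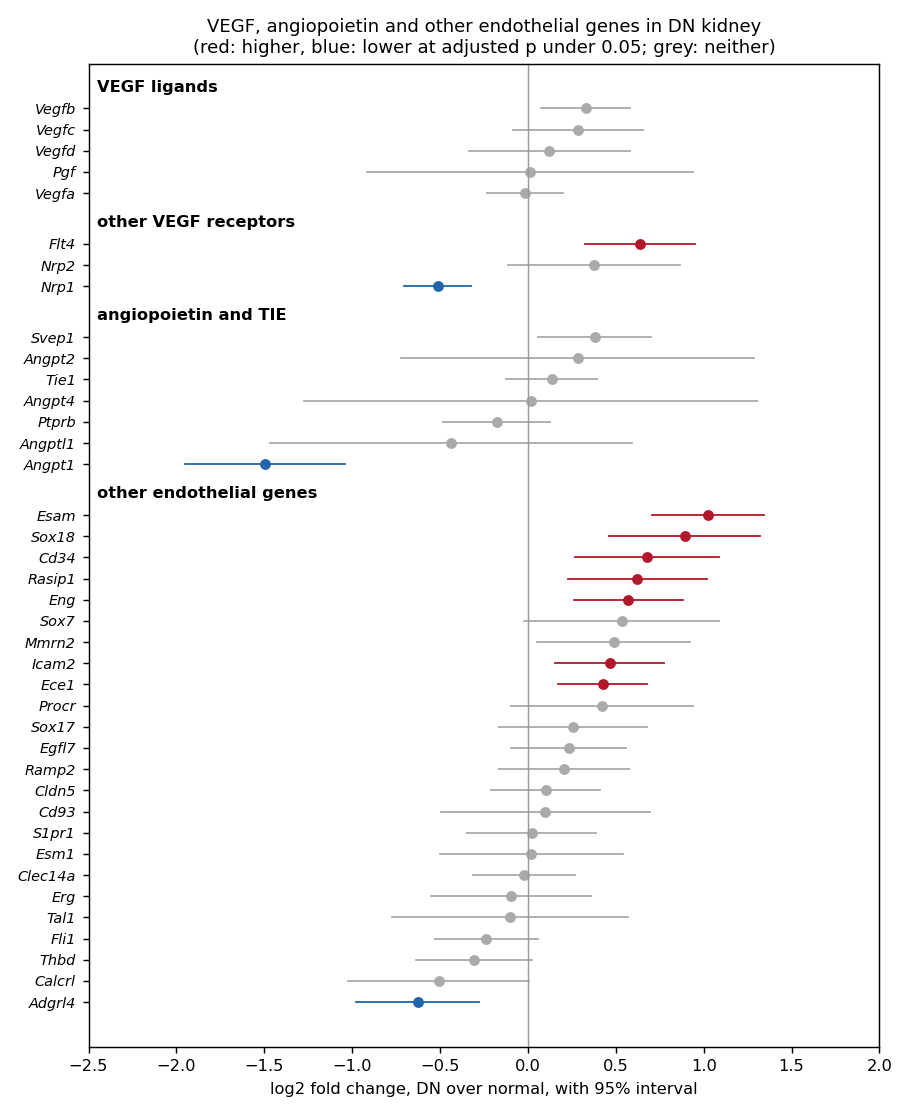
Log2 fold change of DN over normal (x axis) with its 95% interval for VEGF ligands, other VEGF receptors, angiopoietin and TIE genes and other endothelial genes (y axis), 4 rats against 4; red is higher and blue lower at an edgeR adjusted p under 0.05, and Tie1, which is in 2 lists, is drawn once. Angpt1 (-1.50) and Nrp1 (-0.51) lie to the left, and Esam (1.03) and Sox18 (0.89) farthest to the right among the endothelial genes.

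Other endothelial genes were more often higher than lower in DN kidney. Of 27 listed genes 25 were tested, and 7 were called higher and 1 lower, where edgeR called 8.74% of all genes tested higher and 10.8% lower. Their median log2 fold change was 0.21, beside 0.0016 over all genes tested. Esam, an adhesion molecule of endothelial tight junctions, rose from 36.2 ± 6.47 to 73.4 ± 9.28 CPM (log2 fold change 1.03, SE 0.143, adjusted p = 0.00457), and Sox18, a transcription factor of vessel development, from 11.2 ± 2.18 to 20.7 ± 4.27 CPM (0.89, adjusted p = 0.0168). Eng, the TGF-beta co-receptor endoglin, rose from 144 ± 23.8 to 213 ± 30.6 CPM (adjusted p = 0.0244) and Cd34, a sialomucin of vascular endothelium, from a mean of 26.1 to one of 41.6 CPM (log2 fold change 0.68, SE 0.183, adjusted p = 0.0319). Ece1, which activates endothelin, Icam2 and Rasip1 were the other 3 that rose. Adgrl4, an endothelial adhesion G protein-coupled receptor, fell from 34.7 ± 7.11 to 22.4 ± 3.02 CPM (adjusted p = 0.0259). The count of genes called higher was 2 without normal rat 3 or normal rat 4 and 3 without normal rat 1, DN rat 1 or DN rat 2, and Esam and Sox18 passed in each of the 14 alternative fits. The other 6 calls held in 5 (Icam2) to 9 (Eng, Cd34 and Ece1) of those fits. Each of the 6 was lost without normal rat 4, and apart from Ece1 each was lost with the replicate block.

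Edn1 and Vcam1, listed as endothelial activation genes, moved apart. Which kidney cells gave their RNA in this bulk tissue was not tested. Of 5 tested, 1 rose and 1 fell, where 8.74% of all genes were higher and 10.8% lower. Edn1, the vasoconstrictor endothelin-1, rose from 1.07 ± 0.312 to 2.25 ± 0.25 CPM (log2 fold change 1.08, adjusted p = 0.0294). Vcam1, a leukocyte adhesion molecule, fell from 28.4 ± 4.76 to 14.3 ± 1.18 CPM (-0.98, adjusted p = 0.00457). Vcam1 passed in all 14 alternative fits and Edn1 in 8, being lost with the block and without normal rat 3 or 4 or DN rat 1, 2 or 4 (adjusted p of up to 0.0812). Of 8 Notch and arterial genes tested, the gap junction gene Gja4 rose (0.63, adjusted p = 0.0446) and the arterial ligand gene Efnb2 fell (-0.65, adjusted p = 0.0327), counts near the 8.74% and 10.8% over all genes. Gja4 held in 5 of the 14 fits, being lost with the block, with no filter and without any 1 rat but DN rat 4, and Efnb2 in 8, being lost with the block and without normal rat 1, 3 or 4 or DN rat 1 or 2. Of 9 tested genes around NOS3, 2 rose and 0 fell, where 8.74% of all genes were higher and 10.8% lower. They were Nosip, whose protein binds NOS3 (0.35, adjusted p = 0.0253), and Cav1, the caveolin that holds NOS3 inactive (0.45, adjusted p = 0.0491). Cav1 held in 5 of the 14 fits, being lost with the block, with no filter and without any 1 rat but normal rat 3, and Nosip in 9, being lost with the block and without normal rat 1, 3 or 4 or DN rat 2. Of 26 genes downstream of the VEGF receptors, 2 of them (Kdr and Nos3) members, 5 rose (Mapk3, Shb, Casp9, Bad and Map2k2) and 4 fell (Pik3r1, Pik3ca, Prkca and Ppp3ca), with a median log2 fold change of 0.16, where 8.74% of all genes were higher and 10.8% lower. Of these Pik3r1 held in 13 of the 14 fits, Shb in 11, Mapk3 and Pik3ca in 10, Ppp3ca in 9, Prkca in 7, Bad in 6 and Casp9 and Map2k2 in 5. All 9 were lost in at least 1 fit that left out a rat, 8 of them without normal rat 3 and 8 without normal rat 4. Most of these genes are expressed in all kidney cells.

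In SIN (20 mg/kg) over DN, edgeR and DESeq2 both called 0 genes in each of the 8 pathway and endothelial lists. In SIN (40 mg/kg) over DN edgeR called 0, and DESeq2 called 1 downstream signalling gene higher and 1 other endothelial gene lower, of 26 tested in each list. Over all genes DESeq2 called 436 of 15530 at 40 mg/kg and 221 of 15724 at 20 mg/kg. At an unadjusted p under 0.05, 5 of 26 other endothelial genes tested were lower and 1 higher at 20 mg/kg, and 8 were lower and 0 higher at 40 mg/kg. Over all genes at that threshold, 6.24% were lower and 9.20% higher at 20 mg/kg, and 7.21% lower and 9.90% higher at 40 mg/kg. The median log2 fold changes of the other endothelial genes were -0.23 and -0.25, beside -0.01 and 0.01 over all genes. Esam was 56.8 ± 11.3 CPM at 20 mg/kg and 58.9 ± 7.86 CPM at 40 mg/kg (adjusted p = 0.304 and 0.25 against DN), and Clec14a, a C-type lectin of endothelium, was 22.2 ± 1.67 CPM at 40 mg/kg against 28.3 ± 1.47 CPM in DN (log2 fold change -0.35, adjusted p = 0.196). For Edn1 all 4 rats at 40 mg/kg were below all DN rats, as for 3.99% of all genes tested (1.34 ± 0.336 CPM, adjusted p = 0.230). These lists share their DN rats with the rise from normal to DN given above.

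Markers of other kidney cells moved with several of these genes, and 9 genes were each set against 2 marker sums over the 16 rats. These 18 relations were chosen after their values were seen, and the adjusted p do not cover that choice. The permutations of rats ignored the groups, and r with group means taken out has no test. Kdr went with 8 podocyte markers, which ranged from 525 to 698 CPM in sum in the normal, 403 to 679 in the DN, 441 to 563 in the SIN (20 mg/kg) and 462 to 574 CPM in the SIN (40 mg/kg) rats, with none at 0 in any rat. Over 16 rats Pearson's r was 0.782 (permutation p = 0.00028, adjusted p = 0.00252) and Spearman's rho 0.756 (permutation p = 0.00107, adjusted p = 0.00504). With the group means taken out r was 0.731, without DN rat 2 and normal rat 1, the farthest from the median marker sum, 0.814, and without Podxl, which endothelium also expresses, 0.794. Among the single podocyte markers r was 0.859 for Ptpro and -0.493 for Cdkn1c. DN rat 4, with the highest Kdr of all rats (111.6 CPM), also had the highest podocyte sum of its group, 679.4 CPM, and SIN (40 mg/kg) rat 1 (Kdr 105.0 CPM) the highest of its group, 573.9 CPM. None of the other 8 genes had a permutation p under 0.05 with the podocyte sum, and for Flt1 r was 0.262 (permutation adjusted p = 0.569). For Ehd3, the glomerular capillary gene, r with the podocyte sum was -0.136 (permutation adjusted p = 0.792), and its r with Kdr was 0.00981.

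Plvap and Nos3 went with 6 rows of collecting duct and inner medulla markers (Aqp2, Aqp3, Fxyd4, Krt18 and both rows of Slc14a2), none at 0 in any rat. Their sum ranged from 272 to 908 CPM in the normal, 600 to 1850 in the DN, 887 to 1670 in the SIN (20 mg/kg) and 921 to 1920 CPM in the SIN (40 mg/kg) rats. All 6 had a fitted value above 0 in DN over normal with a median log2 fold change of 1.06. Of the 6, edgeR called 1 (Krt18) higher, beside 8.74% of all genes tested. For Nos3 r was 0.801 (permutation p = 0.00019, adjusted p = 0.00252) and rho 0.888 (permutation p = 2e-05, adjusted p = 0.00036). It was 0.708 with group means taken out, 0.838 without normal rat 1 and DN rat 4 and 0.820 without Aqp2. For Plvap r was 0.783 (permutation p = 0.00051, adjusted p = 0.00306), rho 0.759 (permutation p = 0.00112, adjusted p = 0.00504), 0.937 within groups and 0.652 without the same 2 rats. Kdr went the other way (r -0.659, permutation p = 0.00519, adjusted p = 0.0234; rho -0.788, permutation p = 0.00052, adjusted p = 0.00468; -0.620 within groups and -0.727 without those 2 rats). With group means taken out, Tek (r 0.708), Vwf (0.654), Cdh5 (0.616) and Flt1 (0.523) also went with this sum, while over all 16 rats their r ran from -0.0396 to 0.479. DN rats 1 and 2, with marker sums of 1796 and 1850 CPM, had the 2 highest Nos3 and Plvap levels of the DN group. DN rats 3 and 4, at 977.7 and 599.9 CPM, had the 2 lowest. The part of the collecting duct and inner medulla markers in the differences of Nos3 and Plvap between groups was not tested, and neither was that of the podocyte markers in the spread of Kdr. Aqp2 and Aqp3, with medians of 679 and 274 CPM, were the largest parts of the former sum. Whether that sum followed the amount of tissue or the expression of these genes in it was not tested.

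**Figure D4:**
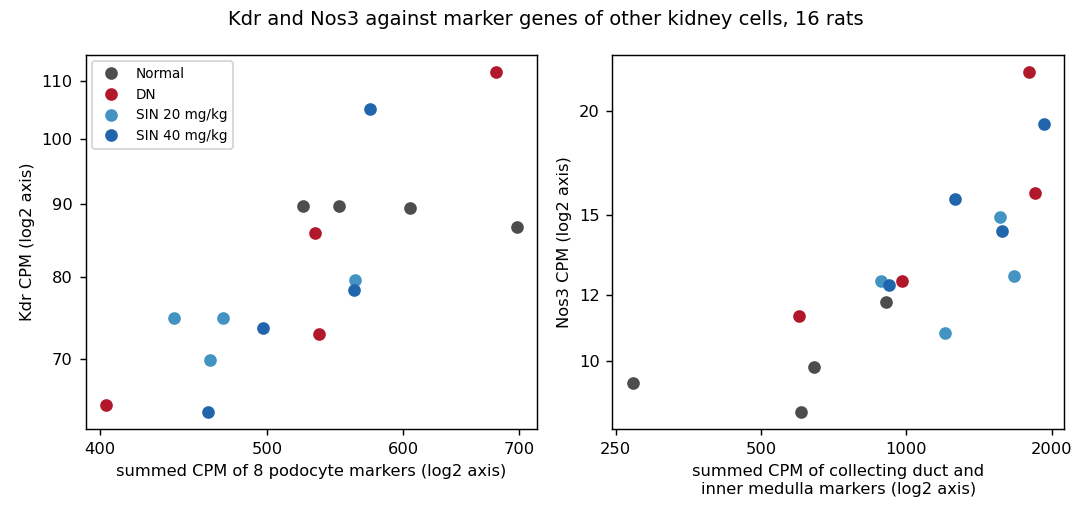
Left: CPM of Kdr (y axis, log2) against the summed CPM of 8 podocyte markers (x axis, log2); right: CPM of Nos3 against the summed CPM of collecting duct and inner medulla markers; each point is 1 of 16 rats, coloured by group. Both rise from left to right (r = 0.782 and 0.801). The normal rats lie in the lower part of the collecting duct and inner medulla marker axis, from 272 to 908 CPM, with DN rat 4 (599.9) and SIN (20 mg/kg) rat 1 (886.6) among them.

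The genes most like these in pattern were sought among 14435 genes with a mean of at least 1 CPM, by Pearson's r over the 16 rats, as a description with no test. With the mean of the 9 standardized members the closest named genes were Pisd (r 0.921), Col18a1 (0.881), Anks1a (0.853), Crispld2 (0.852), Slco3a1 (0.841), Mtcl1 (0.837), Sting1 (0.832), Tmem132a (0.831) and Stk32b (0.825). Of these Col18a1 encodes the basement membrane collagen that holds endostatin. Closest to Kdr were Lysmd2 (0.882), Ptpro (0.859), Synpo (0.833), Atp2b4 (0.822) and Lmx1b (0.813), of which Ptpro and Synpo stand in the podocyte list and Lmx1b is a podocyte transcription factor. Closest to Flt1 were Stim1 (0.868), Pim3 (0.834), Ythdf1 (0.816), Ptges (0.795) and Kcng1 (0.794). Kdr and Flt1 themselves had an r of -0.0873 over the 16 rats. Plvap and Nos3 had an r of 0.758, and Tek and Emcn 0.671.

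In markers of other tissues DN rat 3 and normal rat 1 stood apart. DN rat 3 had the highest levels of all 5 smooth muscle markers and of the 7 urothelium markers, and the smooth muscle sum ran from 190 to 699 CPM in the DN rats and from 89.5 to 199 CPM in the normal rats. Its own values of the 9 genes lay inside the range of the other DN rats except for Ehd3 (48.27 CPM), Cdh5 (33.55 CPM) and Flt1 (70.95 CPM). Without that rat, 0 of the 9 genes passed in DN over normal and 5 other endothelial genes were called higher and 0 lower. Normal rat 1 had 55.6 CPM of urothelium markers against 4.80 to 9.92 CPM in the other normal rats, 199 against 89.5 to 120 CPM of smooth muscle markers, 272 against 605 to 908 CPM of collecting duct and inner medulla markers and 219 against 370 to 525 CPM of leukocyte markers. It also had the lowest Plvap (127.4 CPM), Kdr, Cdh5, Tek, Ehd3 and Emcn of the normal group. Without it 0 of the 9 genes passed in DN over normal, and the log2 fold change was 0.32 for Plvap, 0.28 for Cdh5 and 0.63 for Nos3. In DN over normal 1 VEGF ligand gene was then called higher, and of the other endothelial genes 3 were higher and 1 lower. Thick ascending limb markers summed to 3410 to 4470 CPM in normal and 1880 to 3250 CPM in DN rats, with no overlap. Of these 3 genes 0 had a fitted value above 0 in DN over normal, with a median log2 fold change of -0.57. EdgeR called 1 of them lower, where it called 10.8% of all genes tested lower. Proximal tubule markers summed to 9500 to 13700 CPM in normal and 9500 to 12900 CPM in DN rats. Both sums give the scale of the tubular RNA around the endothelium. The labels name no batch.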

How the data were processed

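The authors sequenced oligo(dT)-selected kidney RNA, trimmed reads with SeqPrep and Sickle, aligned them with TopHat to the Ensembl rat genome (Rnor_6.0) and deposited estimated counts per gene; the submitters' processing notes also name Bowtie, RSEM and edgeR. Of the nonzero expected counts 74.3% were whole, and all were rounded to whole counts. A further 4 library columns without a matching sample, with their mean column, were left out. Columns were joined to rats by the number that ends each sample's description.

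Each pair of groups was fitted with edgeR 4.0.16 (quasi-likelihood, TMM, filterByExpr, two-sided, Benjamini-Hochberg over all genes tested, threshold 0.05) in R 4.3.3. CPM used TMM factors over 16 rats, log2 CPM a prior count of 2, and TPM the table's gene lengths. Ratios to Cdh5 were compared by exact permutation tests, and marker correlations by 1e+05 permutations. In simulated DN over normal data with 15775 genes, the test called 1.03% of 195 genes changed by a log2 fold of 0.5. It called 53.6% of 196 genes changed by 1. DESeq2 1.42.0 called 16.9% and 67.9%. Of the unchanged genes, the test called 0 and 5, and DESeq2 10 and 36. Far fewer genes were changed there than edgeR called in DN over normal, so the shares in the measured data may differ. Alternatives were DESeq2, RLE, no filter, at least 10 counts in every rat, all 16 rats, a replicate block and each rat left out. The 4 rats of a group are separate animals.

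Promoters were taken from RefSeq (GRCr8) and the 250 bases before the gene start searched for motifs with Python 3.11.15. Members and lists were chosen with earlier results of these data known. Named genes are all members, the VEGF ligand, receptor, angiopoietin and TIE genes, the called genes of other lists or examples of them, and the genes closest in pattern; Clec14a and single markers were named after their values were seen. The value of 1 single marker is not reported here.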

Additional observations from a re-analysis of the deposited data

Results flagged for a closer look

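Of 96 sets of 4 rats tested, for the 9 members and the VEGF and angiopoietin pathway genes in each group, 3 held a rat whose gap to its nearest neighbour was above Dixon's 95% critical share of the group's range, where chance gives about 1 in 20. Kdr in normal rat 1 was 86.79 CPM, with the other normal rats at 89.41 to 89.77 CPM. Tek in SIN (20 mg/kg) rat 2 was 67.77 CPM, with the others at 56.68 to 57.52 CPM. Tie1 in DN rat 4 was 52.8 CPM, with the others at 72.7 to 76.0 CPM.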

How the results depend on the processing

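Of the member counts, those of SIN over DN and of SIN (40 mg/kg) over SIN (20 mg/kg) stayed at 0 in every alternative. In DN over normal 0 members passed as reported, 2 with DESeq2, 1 with RLE normalization, 1 with all 16 rats in one fit and 0 to 1 with a rat left out (Nos3 without DN rat 4). In SIN (20 mg/kg) over normal 0 passed as reported, 2 with DESeq2 and 0 to 1 with a rat left out. In SIN (40 mg/kg) over normal 1 passed as reported, 2 with DESeq2, 0 with no filter (Nos3 adjusted p = 0.0573), 0 with all 16 rats (0.0696) and 0 to 1 with a rat left out; with the replicate number as a block 0 passed (0.0511). The cause of these shifts was not tested, except that a fit without a rat has fewer samples. The labels give no link between rats of the same number, and their deviations from the group means correlated at -0.25 to 0.283. Whether such rats shared anything else is not known. The block also changed the sign of 2 values near 0, Nos3 in SIN (40 mg/kg) over DN (0.026) and Flt1 in SIN (40 mg/kg) over normal (0.0043), and cut the other endothelial genes called in DN over normal to 3 higher and 0 lower, the downstream genes to 2 and 3, and the NOS3 genes from 2 to 0.

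Over all genes, edgeR called 3074 in DN over normal and DESeq2 called 4198. With the block edgeR called 1325, and 769 to 3781 with a rat left out. DESeq2 called 221 where edgeR called 0 in SIN (20 mg/kg) over DN, 436 against 0 at 40 mg/kg, 17 against 1 between the doses, 1726 against 1009 in SIN (20 mg/kg) over normal and 1761 against 940 at 40 mg/kg; with a rat left out the last 2 were 551 to 1230 and 462 to 1016. Leaving out 1 rat turned the sign of values that did not pass. In DN over normal these log2 fold changes ran for Kdr from -0.25 to 0.031 and for Ehd3 from -0.018 to 0.29, in SIN (20 mg/kg) over DN for Ehd3 from -0.11 to 0.066, and in SIN (40 mg/kg) over DN for Kdr from -0.22 to 0.10 and for Nos3 from -0.13 to 0.20. Between the doses they ran for Kdr from -0.058 to 0.19, for Cdh5 from -0.16 to 0.016, for Emcn from -0.026 to 0.13 and for Vwf from -0.0798 to 0.36. In SIN (20 mg/kg) over normal they ran for Cdh5 from -0.0098 to 0.17, for Emcn from -0.22 to 0.037, for Plvap from -0.13 to 0.23 and for Ehd3 from -0.049 to 0.26, and in SIN (40 mg/kg) over normal for Flt1 from -0.057 to 0.093, for Tek from -0.075 to 0.055, for Cdh5 from -0.033 to 0.079 and for Emcn from -0.16 to 0.10. Log2 ratios to Cdh5 ran in SIN (20 mg/kg) over DN for Kdr from -0.016 to 0.31, for Nos3 from -0.079 to 0.13 and for Vwf from -0.38 to 0.10, and in SIN (40 mg/kg) over DN for Vwf from -0.21 to 0.35 and for Plvap from -0.014 to 0.22. In the simulated data, with 4 rats a group, edgeR rarely called a log2 fold change of 0.5. Far fewer genes changed there than were called in DN over normal, where some smaller changes passed. Members that missed the threshold are in any case not shown to be equal between groups.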

Other observations

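Across the 9 members, DN rat 4 and SIN (40 mg/kg) rat 1 each had the highest Kdr and the lowest Tek, Nos3, Vwf and Plvap of their group. In DN rat 4 these were 111.6 CPM for Kdr, 42.62 for Tek, 11.33 for Nos3, 13.57 for Vwf and 231.4 CPM for Plvap. In SIN (40 mg/kg) rat 1 they were 105.0 CPM for Kdr, 51.64 for Tek, 12.35 for Nos3, 12.20 for Vwf and 197.8 CPM for Plvap. Both also had the lowest collecting duct and inner medulla marker sum of their group, 599.9 and 921.4 CPM. The pattern was noticed after the values were seen and has no test.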
